A study of Mus musculus with 4 samples.

Results

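Small heat shock proteins and their partner Bag3 were examined in brown adipose tissue, a heat-producing fat. The 8 genes listed are Hspb1, Hspb2, Hspb3, Hspb6, Hspb7, Hspb8, Cryab and Bag3, taken by symbol from the array annotation. A gene was kept where a probe set (the group of probes that measures a transcript) names it alone, and its brightest probe set over all 4 arrays was used. This gave 7 of the 8 listed genes, among 22180 genes measured in all. Members were chosen by family and by measured values: the mean level picked the probe set, and the genotype differences of Hspb8 and Cryab were known when the group was drawn up. The genotype differences of these genes are therefore descriptions, and the tests printed beside them are no independent support.

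The samples were 2 wild-type and 2 Tsku knockout samples of brown adipose tissue from male C57BL/6 mice aged 4 months on a chow diet, each hybridised to 1 array. Tsku encodes tsukushi, a secreted leucine-rich repeat protein, and the mice of one group lack it while those of the other carry the normal gene. The labels name no driver line, promoter or exon for the deletion and say only that the samples of a genotype are biological replicates. Separate mice are not stated, so whether the spread between samples is that between mice is not known. Tsku had 0 listed probe sets, so the genotypes rest on the labels. Of 12 brown adipocyte genes, 11, Ucp1 among them, lay above background on all 4 arrays and Elovl3, a fatty acid elongase, on 2. All 10 macrophage and all 8 endothelial markers examined also lay above it on all 4 arrays. Being above background therefore does not check the tissue, which rests on the label.

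Small heat shock proteins are ATP-independent chaperones built around an alpha-crystallin domain. They hold unfolding proteins in a soluble state until ATP-driven chaperones of the Hsp70 family can refold or dispose of them. Hspb8 binds Bag3, a scaffold that joins it to Hsp70 and to the autophagy machinery, a route that clears damaged filamin and other proteins from cells under mechanical load. Several members, Cryab, Hspb2, Hspb3 and Hspb7 among them, are best known from heart and skeletal muscle, while Hspb1 and Hspb6 are also prominent in smooth muscle and many other tissues. Many heat-inducible chaperone genes are switched on by heat shock factor 1, which binds repeats of the letters GAA in alternating orientation.

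The promoter windows of the members are shown first because such repeats are known from promoters of heat-inducible genes. RefSeq windows (GRCm38.p6) reaching from 250 bases before to 50 bases after a gene's start were available for 6 of the 8 genes, with 7 windows in all because Hspb6 has 2. Hspb2 and Cryab had no entry. The head-to-head core GAANNTTC, which reads the same on both strands, was found in 5 of the 7 windows, against 7.86% of all 32851 windows of the table. The tail-to-tail core TTCNNGAA was found in 0 of the 7, against 8.52% of all windows. A match describes letters only and shows no binding.

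Hspb1 carried 2 cores in the 250 bases before its start, here in capitals, on the plus strand at chr5:135887669-135887918.
Hspb1 upstream: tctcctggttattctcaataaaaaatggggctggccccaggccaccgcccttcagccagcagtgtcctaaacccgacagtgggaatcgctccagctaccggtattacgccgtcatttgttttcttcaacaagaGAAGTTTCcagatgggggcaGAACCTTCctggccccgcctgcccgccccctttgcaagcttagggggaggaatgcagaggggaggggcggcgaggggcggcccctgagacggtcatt

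The stretch before the start of Hspb8, on the minus strand at chr5:116422865-116423114, is shown because Hspb8 was the member with the higher values in the knockout. It held no core, which says only that these letters are not in this stretch. The same stretches of Bag3 and Hspb7, both with lower means in the knockout, held none either. Hspb8 does have a core just after its start, given below.
Hspb8 upstream: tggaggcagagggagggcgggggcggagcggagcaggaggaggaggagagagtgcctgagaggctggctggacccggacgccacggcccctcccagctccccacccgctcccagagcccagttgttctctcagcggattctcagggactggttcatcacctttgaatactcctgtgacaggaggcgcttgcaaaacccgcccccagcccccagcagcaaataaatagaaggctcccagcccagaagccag

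The remaining cores are given with the bases around them, 30 in all, because 3 of them share the same 8 letters with the first core of Hspb1. Positions count the first transcribed base as 1. The core of Hspb8 lay at 3 to 10 (chr5:116422844-116422873, minus strand), that of Bag3 at 43 to 50 (chr7:128523603-128523632, plus strand), and that of the second Hspb6 window at -120 to -113 (chr7:30553170-30553199, plus strand). Hspb3 had a core of other letters at -224 to -217 (chr13:113663882-113663911, minus strand).
Hspb8 site: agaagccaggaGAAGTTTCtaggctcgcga
Bag3 site: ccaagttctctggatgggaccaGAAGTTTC
Hspb6 site: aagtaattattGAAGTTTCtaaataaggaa
Hspb3 site: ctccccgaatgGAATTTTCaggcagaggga

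The letters GAAGTTTC thus occurred in 4 of the 7 windows, from the genes Hspb1, Hspb6, Hspb8 and Bag3, against 1.21% of all windows. They were picked out after the sequences had been read. Hspb7 had neither core in its window. Among 14 genes for other chaperones that heat shock factors are known to switch on, 8 had the head-to-head core and 4 the tail-to-tail core, the latter in 5 of their 19 windows. The letters GAAGTTTC were in 0 of the 19.

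Expression is given as the deposited log2 value, in which a difference of 1 is a doubling. Background on each array was taken as the 95th percentile of 1400 smell and pheromone receptor probe sets and lay between 0.63 and 0.81. Between 50.2% and 53.4% of genes were above it. Of the 7 measured members, 6 lay above background on all 4 arrays, and Hspb3 lay below it on all 4.

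Hspb8 was the 1 member with higher values in the knockout. It read 2.77 and 2.61 in wild-type samples against 4.20 and 3.83 in knockout samples. Both knockout arrays lay above both wild-type arrays, and the differences of the 4 single pairs ran from 1.05 to 1.59. Wild-type arrays averaged 2.69 ± 0.11 (SD, n = 2) and knockout arrays 4.01 ± 0.27 (SD, n = 2). The log2 difference was 1.32 (SE 0.21, 95% interval 0.80 to 1.85), or 2.50-fold. Counted from the highest difference, Hspb8 ranked 26 of 22180 genes. Its difference ran from 1.13 to 1.51 when each array was left out in turn.

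Bag3, the scaffold that Hspb8 binds, did not show the same pattern. It read 5.26 and 5.09 in wild-type samples against 4.75 and 5.41 in knockout samples. The knockout arrays held both its lowest and its highest value, so the genotypes overlapped. The log2 difference was -0.10 (SE 0.26), and its 95% interval from -0.75 to 0.55 also admits changes of either sign. Without knockout replicate 1 the difference was 0.23, and without knockout replicate 2 it was -0.42.

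**Figure D1:**
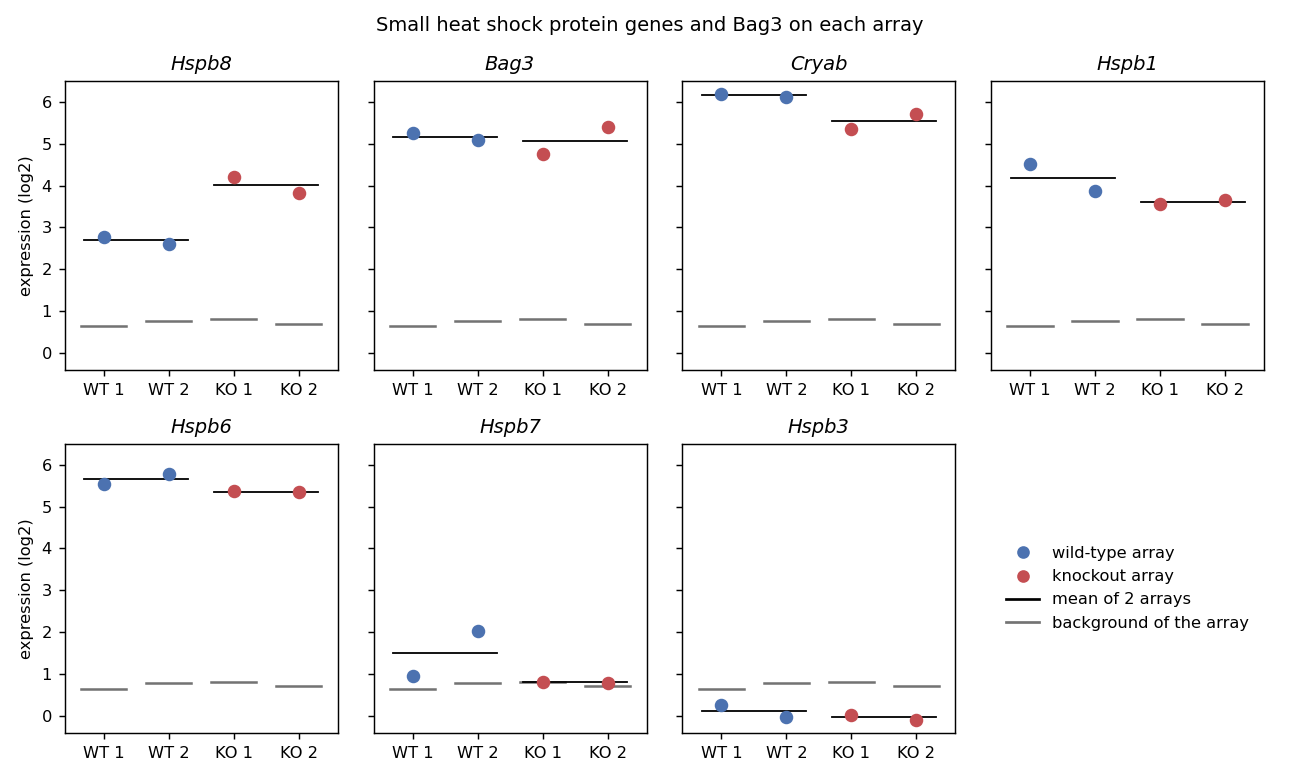
Log2 expression (vertical axis) of the 7 measured genes on the 4 arrays (WT, wild type; KO, knockout), 1 point per array, with black lines for the mean of each genotype and grey lines for the background of each array. Hspb8 is higher on both knockout arrays (4.20 and 3.83) than on both wild-type arrays (2.77 and 2.61), Bag3 overlaps, and Hspb3 lies under the background throughout.

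Cryab, alpha-B crystallin, which guards desmin and titin in muscle, had lower values in the knockout. It read 6.19 and 6.13 in wild-type samples against 5.37 and 5.72 in knockout samples. The genotypes did not overlap, and the wild-type arrays differed by 0.06, far less than the knockout arrays, which differed by 0.36. The log2 difference was -0.62 (SE 0.21, 95% interval -1.12 to -0.11). It rests on the brightest probe set. With the mean of both Cryab probe sets it was -0.37, the second being above background on 1 array.

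Hspb2 had no probe set of its own. RefSeq places it at chr9:50751072-50752354, inside the span that the same table gives to Cryab (chr9:50745951-50756636). The probe set that names both genes read 0.82 and 1.09 in wild-type samples against 0.51 and 0.79 in knockout samples. It was above background on 3 arrays, and its signal cannot be given to either gene. Hspb2 therefore enters none of the counts.

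Hspb1, also called Hsp25 in mice, a chaperone that binds actin and is regulated by phosphorylation, read 4.52 and 3.86 in wild-type samples against 3.57 and 3.65 in knockout samples. Wild-type replicate 1 stood above the other 3 arrays, while wild-type replicate 2 was only 0.21 above the higher knockout array. The log2 difference was -0.59 (SE 0.26, 95% interval -1.23 to 0.06). Without wild-type replicate 1 it was -0.26, and with the mean of its probe sets -0.25. Its second probe set was below background on all 4 arrays.

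Hspb6, a partner of 14-3-3 proteins once phosphorylated by protein kinase A, read 5.54 and 5.78 in wild-type samples against 5.37 and 5.36 in knockout samples. The genotypes did not overlap, but the gap between the nearest arrays was 0.18. The log2 difference was -0.30 (SE 0.19, 95% interval -0.77 to 0.17), the smallest among the members whose genotypes did not overlap.

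Hspb7, a cardiovascular and muscle member that binds filamin C, read 0.95 and 2.03 in wild-type samples against 0.81 and 0.79 in knockout samples. Wild-type replicate 2 stood farthest above background, and the knockout arrays lay nearly at it. The log2 difference of -0.69 (SE 0.36, 95% interval -1.57 to 0.19) rested on that 1 array. Without it the difference was -0.15, and without wild-type replicate 1 it was -1.23.

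Hspb3, a muscle member that forms complexes with Hspb2, was at background. It read 0.25 and -0.03 in wild-type samples against 0.02 and -0.10 in knockout samples. No fold is given for it, as both genotypes were below background.

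**Figure D2:**
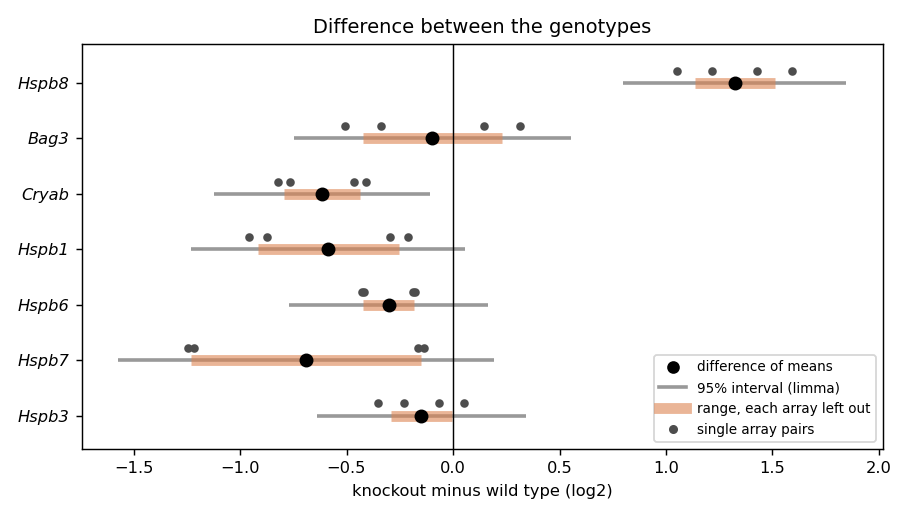
Knockout minus wild-type log2 difference (horizontal axis) of each gene, with black points for the difference of means, grey lines for the 95% interval from limma, orange bars for the range when each array is left out in turn, and small dots for the 4 single pairs of arrays. Hspb8 lies at 1.32 and the other 6 genes between -0.69 and -0.10. The leave-one-out bar of Bag3 crosses 0 and that of Hspb7 runs from -1.23 to -0.15.

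Taking the 7 genes as a list, 1 was higher and 6 were lower, with a median log2 difference of -0.30. Over all genes 11670 were higher and 10510 lower, with a median of 0.02. The arrays of the genotypes did not overlap for 1 member higher in the knockout, where 19.4% of all genes were so, and for 4 members lower in the knockout, where 15.8% were. Since the group was proposed with these differences known, nothing is read from these counts. With limma and Benjamini-Hochberg adjustment over all genes, 0 members passed an adjusted p of 0.05, as did 0 of 22180 genes (0%). The members' adjusted p ran from 0.872 to 0.966. At an unadjusted p under 0.05 there were 2 members, Hspb8 and Cryab, where 5.56% of all genes (1234) were past it. With 2 samples against 2, an exact permutation test of a single gene cannot give a two-sided p below 0.333.

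The differences between arrays of the same genotype were not used to choose the members and are given as a description of these arrays. From wild-type replicate 1 to replicate 2 the log2 value differed by 1.08 for Hspb7, 0.24 for Hspb6, -0.06 for Cryab, -0.16 for Hspb8, -0.17 for Bag3 and -0.66 for Hspb1. From knockout replicate 1 to replicate 2 it differed by 0.65 for Bag3, 0.36 for Cryab, 0.09 for Hspb1, -0.01 for Hspb6, -0.03 for Hspb7 and -0.38 for Hspb8. On these arrays the members did not all differ in the same direction. Hspb7 and Hspb1 differed in opposite directions between the wild-type arrays, and Bag3 and Hspb8 between the knockout arrays. Each genotype gives a single pair of arrays, and whether the members vary together was not tested.

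Because several members are known from muscle, skeletal muscle markers were set beside them. All 22 markers had lower means in the knockout, with a median difference of -1.68, and 0 of 22 passed the adjusted threshold. The genotypes did not overlap in 16 of the 22, all lower, where 15.8% of all genes were so. Their summed linear signal was 416 and 618 in wild-type samples against 290 and 125 in knockout samples. None was at background on all arrays. Among them Acta1, the muscle actin, differed by -1.90, Ckm, the muscle creatine kinase, by -2.15, Tnnt3, a fast troponin, by -1.84 and Mylpf, a fast myosin light chain, by -0.31. In whole tissue, fewer cells of a type and less RNA per cell cannot be told apart.

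Within a genotype the median deviation of the muscle list differed by 0.72 from wild-type replicate 1 to 2 and by -0.84 from knockout replicate 1 to 2. Hspb7 and Hspb6 were higher on wild-type replicate 2, the array with the most muscle signal. Neither was clearly lower on knockout replicate 2, the array with the least, where Hspb7 was already near background. Cryab differed by 0.36 from knockout replicate 1 to 2 and by -0.06 from wild-type replicate 1 to 2. The part of muscle RNA in the differences of any member was not tested.

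Other cell types differed less, or on single arrays. Of 11 slow and cardiac muscle markers 0 were above background on all arrays, with Myh6, Tnni1, Nppa and Myl7 below it on all 4 arrays, 7 lower and a summed signal of 17.1 and 23.8 in wild-type samples against 18.3 and 14.3 in knockout samples. Smooth muscle markers, whose cells are known to use Hspb1 and Hspb6, were lower in 5 of 9, with a median of -0.10 and a summed signal of 114 and 107 in wild-type samples against 95.7 and 112 in knockout samples. All 10 macrophage markers were lower, with a median of -0.53, and their summed signal was 257 and 268 in wild-type samples against 143 and 268 in knockout samples. Knockout replicate 1, low in these, was also the array with the lowest Bag3 and Cryab values, and whether the 2 are linked was not tested. Endothelial markers were lower in 4 of 8 (median -0.03), with a summed signal of 661 and 563 in wild-type samples against 561 and 753 in knockout samples. Of 8 Schwann cell markers 5 were measured, and 4 of the 5 had higher means in the knockout. These 4 include Sox10 and Mal, below background on all arrays, and Mbp, which differed by 0.001. The summed signal of the 5 was 16.6 and 14.2 in wild-type samples against 15.2 and 30.1 in knockout samples. The brightest of them, S100b, read 3.22 and 2.57 in wild-type samples against 2.93 and 4.47 in knockout samples, so its genotypes overlapped.

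Beside Hspb8 stand the liver plasma protein genes, since 8 of 8 were also higher in the knockout, with a median difference of 0.58. Their summed signal was 31.1 and 21.3 in wild-type samples against 86.3 and 41.0 in knockout samples, and Fgg was at background on all arrays. The genotypes did not overlap in 3 of the 8 (Alb, Apoa1 and Apoa2), all higher, where 19.4% of all genes were so. The list's median deviation was 0.62 on knockout replicate 1 but -0.25 on knockout replicate 2. On the wild-type arrays it was -0.14 and -0.40. The deviation of Hspb8 was positive on both knockout arrays (0.85 and 0.47). Alb, albumin, read 3.68 and 2.87 in wild-type samples against 5.77 and 4.41 in knockout samples. Brown adipocyte markers were higher in 11 of 12, with a median of 0.26 and a summed signal of 3950 and 3785 in wild-type samples against 4478 and 4547 in knockout samples. Whether either has a part in the Hspb8 difference was not tested.

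**Figure D3:**
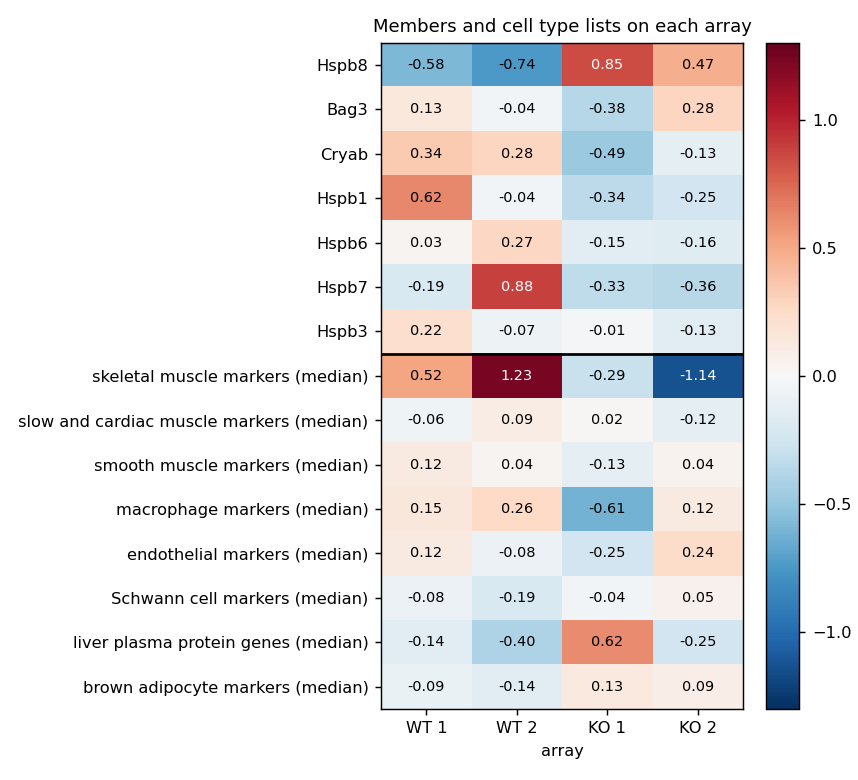
Deviation of each gene from its mean over the 4 arrays (log2, colour scale and printed number) for the 7 members above the black line and, below it, the median deviation of each cell type list. Skeletal muscle markers run from 1.23 on wild-type replicate 2 to -1.14 on knockout replicate 2, Hspb7 is high on wild-type replicate 2 (0.88), and Hspb8 is positive on both knockout arrays (0.85 and 0.47).

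The rest of the pathway was read from the same fit, and 0 genes of any list passed the adjusted threshold in either direction. Of the remaining small heat shock protein genes, Cryaa, the lens alpha-A crystallin, and Hspb9, a testis member, were below background on all arrays. Hspb11, which despite its name works in transport along cilia, differed by -0.29. Odf1, named for the outer dense fibres of the sperm tail, read 7.28 and 7.53 in wild-type samples against 7.40 and 7.54 in knockout samples, a difference of 0.07. Whether this probe set measures Odf1 transcripts in brown fat was not tested.

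Several of the other BAG genes encode co-chaperones that bind Hsp70 through the same domain as Bag3. Of 5 measured, 2 were higher and 3 lower, with a median of -0.03. Bag4 differed by -0.37, Bag2 by 0.33, Bag1 by -0.21 and Bag5 by 0.17. Bag1, which is linked to proteasomal disposal as Bag3 is to autophagy, read 5.40 and 5.34 in wild-type samples against 5.40 and 4.91 in knockout samples.

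Genes of the Bag3-dependent autophagy route were lower in 6 and higher in 5 of 11 measured members, with a median of -0.04. Hspa8, the constitutive Hsp70 of the complex, differed by -0.12, and Sqstm1, the ubiquitin receptor p62, by 0.06. Synpo2, the myopodin that ties Bag3 to the membrane fusion machinery, differed by -0.41. It read 1.58 and 1.85 in wild-type samples against 0.91 and 1.70 in knockout samples, so that knockout replicate 1 was low again. The ubiquitin ligase gene Stub1 had no probe set of its own.

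Heat shock factor genes were measured in 4 of 5 cases, without Hsf1, and 3 were lower. Hsf2, a factor that also pairs with heat shock factor 1, read 3.70 and 3.46 in wild-type samples against 3.14 and 2.93 in knockout samples. The genotypes did not overlap, and the log2 difference was -0.54 (SE 0.20, limma adjusted p = 0.872). Hsf4 differed by -0.29, and Hsbp1, a small protein that binds heat shock factor 1, by 0.09. Hsf5 was below background on all arrays.

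Chaperone genes known as targets of heat shock factors were lower in 10 of 14 measured members, with a median of -0.15. An unadjusted p under 0.05 was reached by 3 of them, all lower, where 5.56% of all genes reached it in either direction. The genotypes did not overlap in 6, all lower, where 15.8% of all genes were so. Hspa1a, an inducible Hsp70, read 4.04 and 2.49 in wild-type samples against 2.05 and 2.04 in knockout samples, so wild-type replicate 1 was far above the other arrays, as it was for Hspb1. Its near-identical copy Hspa1b, which array probes may not separate, read 3.28 and 2.09 in wild-type samples against 1.97 and 1.29 in knockout samples. Dnajb1, an Hsp40 partner, differed by -0.02 and Hsph1, an Hsp70 exchange factor, by -0.08.

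Cytoskeletal partners gave no common direction as a list, with 5 of 8 lower, 3 higher and a median of -0.03. The largest difference was that of Actn2, at -1.66. It read 3.84 and 2.70 in wild-type samples against 1.01 and 2.22 in knockout samples. Des, the muscle filament desmin that Cryab protects, differed by -0.46, and Ttn, the giant sarcomere protein titin, by -1.37. Ttn read 2.63 and 4.28 in wild-type samples against 2.84 and 1.33 in knockout samples, highest on wild-type replicate 2 and lowest on knockout replicate 2 like the skeletal muscle list. Dmpk, the kinase that Hspb2 binds, differed by -0.03 and Vim, the filament vimentin, by 0.01. Among 8 genes for kinases that can phosphorylate small heat shock proteins, 5 were higher, with a median of 0.11. Mapkapk2, the main kinase of Hspb1, differed by -0.07, Mapkapk3 by 0.20, Mapk14, the p38 kinase above both, by 0.10 and Prkaca, a catalytic subunit of protein kinase A, by 0.15.

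**Figure D4:**
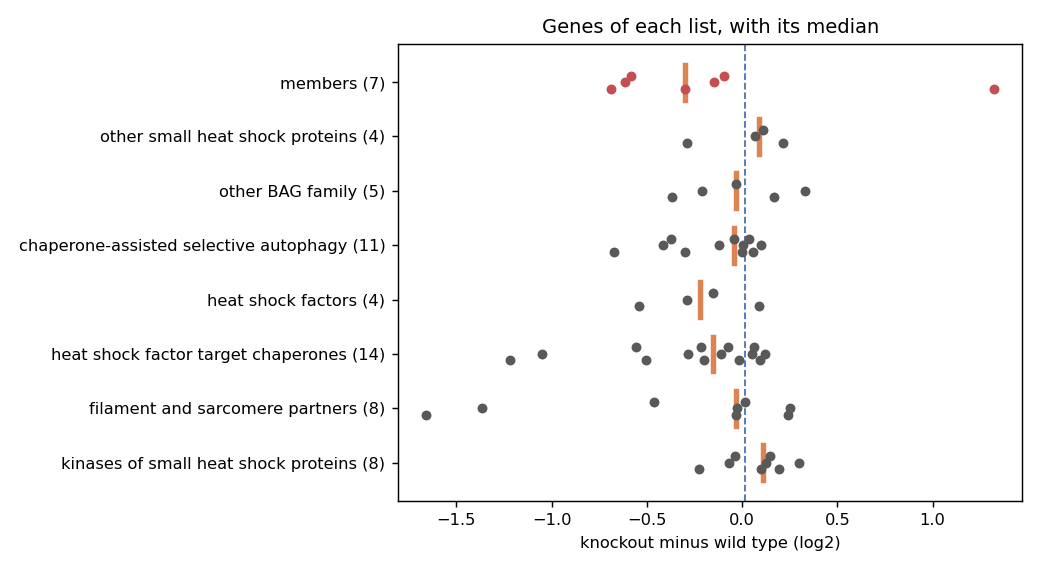
Knockout minus wild-type log2 difference (horizontal axis) of every measured gene of the members and the 7 pathway lists, 1 dot per gene with the number of genes in brackets, an orange bar for the median of each list and a dashed line for the median of all genes (0.02). The members' median is -0.30, with Hspb8 apart at 1.32, and the list medians lie between -0.22 and 0.11.

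The genes whose 4 values were most like those of Hspb8 were searched by the Euclidean distance between deviations from each gene's mean. The search covered 10727 of the 11562 genes above background on at least 2 arrays, after predicted genes, small RNA genes and receptors of smell were skipped. As the Hspb8 difference between genotypes was already known, likeness to it is no separate result. The nearest were Ppard (distance 0.16), Acaa1b (0.19), Mup21 (0.25), Pnpla3 (0.25) and Orm3 (0.26). Ppard encodes a nuclear receptor for fatty acids, Acaa1b a peroxisomal thiolase and Pnpla3 a lipid droplet hydrolase, while Mup21 and Orm3 encode members of secreted lipocalin families. Acaa1b, Mup21 and Orm3 have close paralogs, and their probe sets may not separate them. Mup21 was below background on both wild-type arrays and entered only through the knockout arrays. Within a distance of 0.5 lay 31 genes.

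For Cryab the nearest were Micu3 (0.047), a regulator of the mitochondrial calcium uniporter, Wdr5 (0.048), a subunit of histone methyltransferases, the RNA gene Jpx (0.067), Sh3d21 (0.071) and Chordc1 (0.074), an Hsp90 co-chaperone among the heat shock factor targets. Within a distance of 0.5 of Cryab lay 1681 genes, many more than near Hspb8, whose arrays differed by more. With 4 arrays, such likeness is a description.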

How the data were processed

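Total RNA was labelled with biotin and hybridised to whole-transcript arrays, per the labels' protocols. Normalized log2 values of 41345 probe sets in 4 samples were deposited by the authors as 1 table. RMA, oligo and limma are named without roles in the submitters' processing notes, and versions and genome build are not given in the sources used here. Base 2 is assumed, since RMA works in log2. The values run from -1.12 to 11.78, lower than RMA usually gives, for a reason not stated. Differences are read as log2 differences on the assumption that any shift is constant. RMA pulls dim probe sets together, so differences of dim genes are understated. Precision is limited by the number of arrays, and the median gene had a 95% interval of its difference ± 0.52.

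The platform annotation gave 1 symbol for 23521 probe sets, several for 1814 and none for 16010. The brightest probe set was kept for each gene. Of the 23521, 23328 matched the RefSeq gene table (GRCm38.p6) by gene ID. The genotypes were compared with limma 3.58.1 under R 4.3.3 (lmFit and eBayes, two-sided) over all 22180 genes, with no block or filter and with Benjamini-Hochberg adjustment at 0.05. There were 2 residual and 3.96 prior degrees of freedom. The fit was tested on simulated data. Summed signals add 2 to the power of the log2 value over a list. Genes named are the members, genes among the leading 4 of each list in its written order, and the 5 nearest in pattern to Hspb8 and to Cryab. Hsbp1, Actn2, S100b and the dim genes Elovl3, Mal, Nppa, Myl7 and Fgg fall outside this rule and were named after their values were seen. Members and lists were chosen with earlier results of these data known.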

Additional observations from a re-analysis of the deposited data

How the results depend on the processing

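Alternatives were a replicate block, 2 filters on dim genes, the mean or most variable probe set, repeated quantile normalization, median centring, a mean trend and a robust prior, and each array left out. No member passed the threshold under any of them, the lowest adjusted p being 0.241 for Hspb8 in limma without wild-type replicate 1 (its range was 0.241 to 0.927). Hspb8 stayed higher and Cryab, Hspb1, Hspb6, Hspb7 and Hspb3 stayed lower in every alternative that tested them; Hspb3 was removed by both filters on dim genes. The Bag3 difference ran from -0.42 to 0.23 with single arrays left out and turned positive without knockout replicate 1, so that 1 to 2 members were higher. Over all genes 1 passed with the replicate block, with median centring and with the mean trend, and 0 to 15 did with single arrays left out. With the replicate block 0 members passed, and the numbers pair nothing in the labels: deviations of arrays with the same number correlated at -0.07 across genes, and with 2 pairs this is only a hint. Of the cell type lists 0 to 4 genes passed with single arrays left out, the most without wild-type replicate 1. A fit without an array assumes that the lone sample varies like the other genotype. Signal over background limits Hspb7 and Hspb3.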
